A study of Mus musculus with 8 samples.

Results

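Expression of 10 actin and actin-dynamics genes was examined in sorted cells of the mouse growth plate, out of the 16536 genes in the deposited table. The genes are *Actb*, *Actg1*, and *Acta2*, which encode actins, the monomer-binding genes *Pfn1*, *Cfl1*, and *Tmsb4x*, and *Arpc1b*, *Coro1a*, *Gmfg*, and *Gmfb*, whose products act on branched actin filaments. They were chosen by name, to set genes enriched in leukocytes beside broadly expressed relatives, with their difference between the treatments already known. Their own SAG-to-DMSO differences are therefore given as a description, without a test. All 10 genes were in the table and passed the filter on low counts, and the lowest count of any of them in any library was 163, for *Acta2* in SAG replicate 1.

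RNA was sequenced from mCherry+CD73+ cells of Pthrp-mCherry mice, 4 treated with DMSO and 4 with SAG, an agonist of Smoothened that activates Hh signaling. The mCherry reporter follows expression of *Pthlh*, which encodes PTHrP, and CD73, a nucleotidase of the cell surface, was the other marker of the sort. Either agent was injected i.p. once a day between days P30 and P36 by the deposited description, and the methods give a schedule 1 day later. At day P38 the growth plates of both femurs of each mouse were pooled, digested, and sorted, giving 1 library per mouse. Both groups carry the reporter and differ in the injected agent. The sort described used mCherry, CD73, and a viability dye, and no antibody against a leukocyte marker is mentioned. Male and female mice were examined, and the sex of each mouse is not given.

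Actin is the monomer of the thin filaments that shape and move cells. Beta- and gamma-actin, the products of *Actb* and *Actg1*, are found in nearly all cells, whereas alpha-smooth muscle actin, the product of *Acta2*, is a marker of smooth muscle, pericytes, and myofibroblasts. Profilin and thymosin beta-4 hold monomers ready for assembly, cofilin severs old filaments, the Arp2/3 complex starts branches, and coronins and glia maturation factors help to take branches apart. Leukocytes migrate by fast turnover of branched filaments and express their own paralogs of several of these genes, among them *Coro1a*, *Gmfg*, and *Arpc1b*. *Actb* is also widely used to normalise PCR and blots.

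Between 24971992 and 46593090 reads were counted on genes per library, which puts 3 counts at 0.0644 to 0.120 CPM by plain library size, a floor for counting error only. All levels below are CPM with library sizes scaled by edgeR's TMM factors. DMSO replicate 4 had the fewest counts and stood apart from the other DMSO-treated mice. Spearman's rho of counts, taken across genes, which are no replicates, reached from 0.846 to 0.875 for its pairs with them and from 0.931 to 0.942 among the other three. With the SAG-treated mice the rho of DMSO replicate 4 was from 0.867 to 0.888. The libraries held RNA of blood cells as well as of cartilage. The summed level of 15 neutrophil markers was between 5650.3 and 15770 CPM with DMSO and between 29723 and 47527 CPM with SAG, and 12 of them were higher with SAG (quasi-likelihood test of edgeR, threshold 0.05 on the adjusted p). Of 5 pan-leukocyte markers 3 were higher, and their sum was between 458 and 919 CPM with DMSO and between 1165 and 1899 CPM with SAG. The sum of 14 growth plate chondrocyte markers was between 47511 and 110480.0 CPM with DMSO and between 19018 and 52979 CPM with SAG, and 0 of the 14 passed edgeR's test, although all 14 were lower at an unadjusted p under 0.05 and DESeq2 called 6 of them lower. Of 9 tested B-lineage markers 3 were lower, with sums between 87.0 and 407 CPM with DMSO against between 21.8 and 46.4 CPM with SAG. All 9 were lower at an unadjusted p under 0.05, and 7 were called lower by DESeq2 and 2 by limma voom. Of 10 monocyte and macrophage markers 1 was higher, and of 31 tested T and NK cell, erythroid, osteoblast, and endothelial markers 0 passed edgeR's test, with 1 higher and 3 lower when p was left unadjusted and 2 called lower by DESeq2. No marker on any of these lists was at 0 in all libraries. Among the DMSO-treated mice, replicate 4 had the highest neutrophil, pan-leukocyte, and B-lineage sums, at 15770, 919, and 407 CPM. Its chondrocyte sum was the lowest of that group, at 47511 CPM. The summed erythroid markers reached 9930 CPM in it, the highest of all libraries. The part of these cell types in the values below was not tested, and in bulk libraries more cells of a type and more RNA per cell cannot be told apart.

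Coding sequences were compared first, because reads shared between similar genes limit what the counts can tell. The coding sequences of *Actb* and *Actg1* are both 1128 bases long and identical at 88.7% of positions, and that of *Acta2* is identical to them at 82.8% and 81.5% of aligned positions. *Gmfb* and *Gmfg* have coding sequences of 429 bases and are identical at 71.0% of aligned positions. The first 60 coding bases of each pair are shown 5′ to 3′, taken from the GENCODE M21 transcripts, with capitals where the pair differs. The 60 bases differ at 9 positions between the cytoplasmic actins and at 23 positions between the glia maturation factors.
Actb: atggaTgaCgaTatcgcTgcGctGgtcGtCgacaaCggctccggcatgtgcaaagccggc
Actg1: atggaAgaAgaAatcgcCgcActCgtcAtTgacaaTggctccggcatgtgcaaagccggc
Gmfb: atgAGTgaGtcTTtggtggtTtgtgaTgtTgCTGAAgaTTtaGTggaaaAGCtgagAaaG
Gmfg: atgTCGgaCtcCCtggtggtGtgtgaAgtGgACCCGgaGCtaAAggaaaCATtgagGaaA

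A read can be split between genes only where they share a stretch of sequence, so runs of 31 bases were counted over all annotated transcripts of a gene. *Actb* and *Actg1* had 106 such runs in common, 3.76% of those of *Actb* and 3.77% of those of *Actg1*. *Actg1* shared 40.2% of its runs with other annotated genes, chiefly the gene Gm12715, and 23.5% with genes that are in the table. *Actb* shared 23.5% with other genes, chiefly *Lrrc58*, and 18.5% with genes in the table. The shares were 13.2% for *Cfl1* and for *Arpc1b*, 11.3% for *Gmfg*, all of it with its pseudogene Gmfg-ps, and 1.39% or less for *Acta2*, *Gmfb*, and *Pfn1*. *Tmsb4x* and *Coro1a* shared none. The counts of *Actb*, *Actg1*, *Cfl1*, *Arpc1b*, and *Gmfg* are thus uncertain to the extent that reads on such copies were assigned to them. *Arpc1b*, *Gmfg*, *Coro1a*, and *Cfl1* also overlap a gene on the opposite strand, and whether the counting used strand is not given in the sources used here.

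Promoters were examined for 9 of the 10 genes, with 11 start sites in RefSeq's table for GRCm38.p6, and *Actb* had no entry. The 250 bases before each start were searched on both strands. The CArG box, the site of serum response factor, was found before 1 of the 11 starts, that of *Actg1*, and before 1.47% of all 32851 starts in the table. The run AGGAAG, a core that ETS factors such as PU.1 recognise, was found before 2 of the 11 starts, 1 of *Coro1a* and 1 of *Gmfg*, and before 29.5% of all starts. GGGCGG, an Sp1 core, preceded starts of 6 of the genes and 32.7% of all starts, and TATAAA preceded none of the 11 and 12.4% of all. A match is a description of the letters and not evidence of binding. The 3 promoters with a CArG box or AGGAAG are shown 5′ to 3′ on the strand of the gene, with the matches in capitals, so that the letters found can be read in their surroundings. For AGGAAG the share of starts was no higher among these genes than in the whole table. The *Actg1* promoter lies at chr11:120348496-120348745 (minus strand), that of *Coro1a* at chr7:126704221-126704470 (minus strand), and that of *Gmfg* at chr7:28440687-28440936 (plus strand, where AGGAAG occurs at overlapping positions). Those of *Coro1a* and *Gmfg* lie inside the annotated gene rather than at its 5′ end, and each of these genes has a second start in the table that AGGAAG did not precede.
Actg1: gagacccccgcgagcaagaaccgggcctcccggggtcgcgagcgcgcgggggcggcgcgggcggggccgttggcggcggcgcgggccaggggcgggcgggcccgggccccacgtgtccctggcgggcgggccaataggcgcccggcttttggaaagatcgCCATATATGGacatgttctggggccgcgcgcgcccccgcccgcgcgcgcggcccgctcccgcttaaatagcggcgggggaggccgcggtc
Coro1a: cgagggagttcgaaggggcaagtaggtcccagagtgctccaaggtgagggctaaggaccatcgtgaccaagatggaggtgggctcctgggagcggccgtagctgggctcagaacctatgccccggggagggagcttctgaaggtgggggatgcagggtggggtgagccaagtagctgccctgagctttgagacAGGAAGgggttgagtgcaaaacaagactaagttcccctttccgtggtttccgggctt
Gmfg: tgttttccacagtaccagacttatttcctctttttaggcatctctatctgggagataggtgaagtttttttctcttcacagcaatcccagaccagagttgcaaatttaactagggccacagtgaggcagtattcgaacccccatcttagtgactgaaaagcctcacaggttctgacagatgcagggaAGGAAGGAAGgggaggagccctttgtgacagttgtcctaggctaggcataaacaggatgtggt

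Of the 3 actin genes, *Actb* and *Actg1* were higher in every SAG-treated mouse than in every DMSO-treated mouse, and *Acta2* was not. *Actb*, on chromosome 5 of GRCm38 from 142903115 to 142906754, was measured at 4577, 4440.1, 5871, and 6610.2 CPM in DMSO replicates 1 to 4. In SAG replicates 1 to 4 it was 9211, 11736, 9284, and 10535 CPM. The lowest SAG-treated mouse was 1.39 times the highest DMSO-treated mouse, so the groups did not overlap. The means of *Actb* were 5375 ± 1046 CPM (SD, n = 4) and 10192 ± 1195 CPM (SD, n = 4), a 1.90-fold difference and a log2 fold change of 0.92 (standard error 0.21). *Actb* alone took between 0.449% and 0.697% of all counts with DMSO and between 0.924% and 1.14% with SAG. By raw counts it ranked between 6 and 13 among all genes in the DMSO libraries and between 3 and 5 in the SAG libraries.

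*Actg1*, on chromosome 11 from 120345690 to 120348542, was the steadiest of the 10 genes among the DMSO-treated mice. Its level was 1904, 1883, 1918, and 1812 CPM in DMSO replicates 1 to 4, a range so narrow that DMSO replicate 4 lay close to the others. In SAG replicates 1 to 4 it was 2438, 2718, 2643, and 3195 CPM, again without overlap. The means were 1879 ± 47.1 CPM (SD, n = 4) and 2748 ± 320.2 CPM (SD, n = 4), a log2 fold change of 0.55 (standard error 0.17). The coefficient of variation with DMSO was 2.51% for *Actg1* and between 11.5% and 36.5% for the other 9 genes.

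The count of *Actb* divided by that of *Actg1* in the same library does not depend on scaling. It was 2.40, 2.36, 3.06, and 3.65 in DMSO replicates 1 to 4 and 3.78, 4.32, 3.51, and 3.30 in SAG replicates 1 to 4. SAG replicates 3 and 4 lay below DMSO replicate 4, so the groups overlapped, with means of 2.87 ± 0.611 and 3.73 ± 0.441 (SD, n = 4 each). Without DMSO replicate 4, left out after the data were seen, the highest DMSO value was 3.06 and all SAG values lay above it.

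*Acta2*, on chromosome 19 from 34241090 to 34255590, was the least abundant of the 10 genes by CPM. The DMSO-treated mice, replicates 1 to 4, had 4.80, 9.91, 8.85, and 8.88 CPM, and SAG replicates 1 to 4 had 4.69, 17.0, 12.2, and 24.6 CPM. SAG replicate 1 was the lowest library of all, and the other three SAG-treated mice lay above every DMSO-treated mouse. The log2 fold change was 0.85 with a standard error of 0.51, the largest of the 10 genes. It was 0.48 without SAG replicate 4 and 1.15 without SAG replicate 1. The summed level of 12 smooth muscle and pericyte markers was between 447 and 947 CPM with DMSO and between 238 and 520.0 CPM with SAG. *Cspg4* was the largest part of this sum, between 306 and 659.7 CPM with DMSO and between 115 and 359.7 CPM with SAG. *Myh11*, *Cnn1*, *Tagln*, *Lmod1*, *Des*, *Rgs5*, and *Mcam* were each at 9.07 CPM or less in every library. Of the 11 tested markers 0 passed edgeR's test, with 2 lower at an unadjusted p under 0.05 and 0 called by DESeq2.

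**Figure D1:**
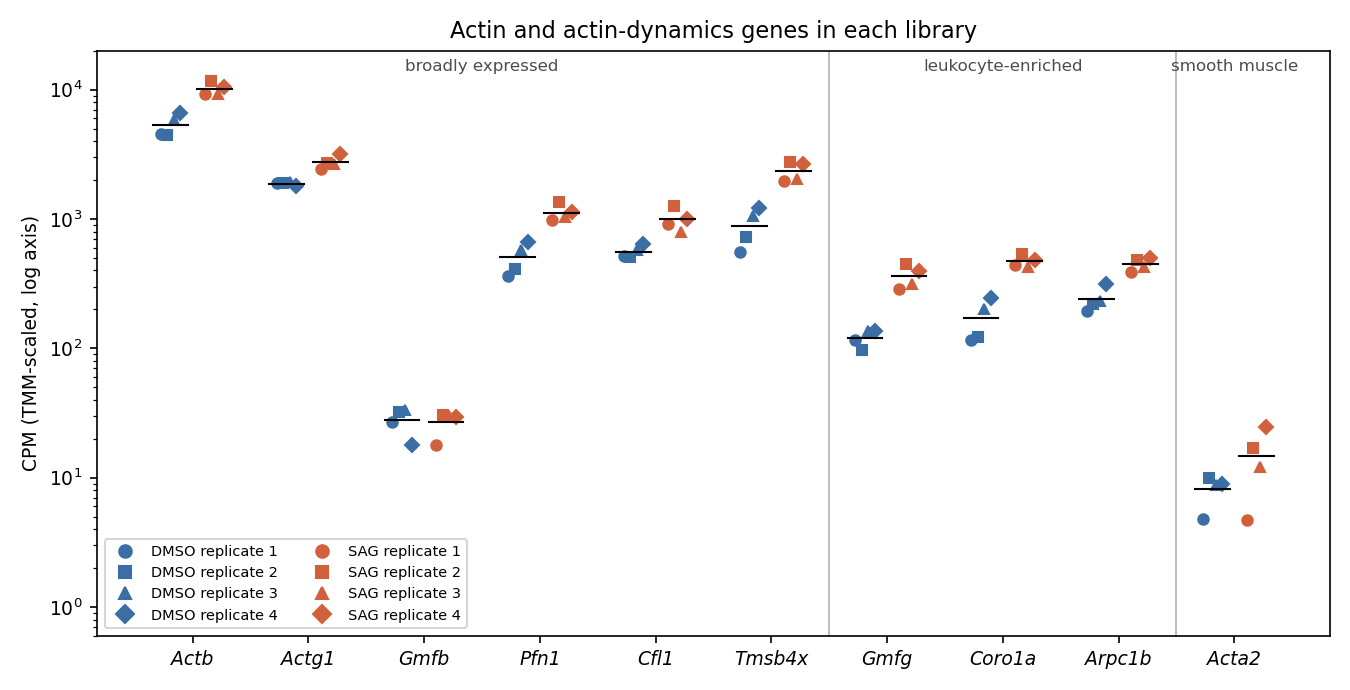
CPM of the 10 genes in each library, on a log axis, with points for single mice and lines for group means. The groups are apart for 8 genes and overlap for Gmfb and Acta2, and Actg1 varies least among the DMSO-treated mice.

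The 3 genes of monomer-binding and filament-severing proteins were higher in every SAG-treated mouse, and *Tmsb4x* differed most. *Tmsb4x* encodes thymosin beta-4, which sequesters actin monomers, and is located on chromosome X from 167207093 to 167209315. Its level was 554, 731, 1048, and 1211 CPM in DMSO replicates 1 to 4 and 1963, 2765, 2045, and 2647 CPM in SAG replicates 1 to 4. The lowest SAG-treated mouse was 1.62 times the highest DMSO-treated mouse, DMSO replicate 4. The means were 886 ± 298 CPM (SD, n = 4) and 2355 ± 409.7 CPM (SD, n = 4), a log2 fold change of 1.41 (standard error 0.26). In level per kilobase of exon, *Tmsb4x* was at 646 ± 217 CPM per kb and *Actg1* at 707 ± 17.7 with DMSO, and they were at 1718 ± 299 and 1034 ± 120.5 with SAG (SD, n = 4 each). The ranges of the pair overlapped with DMSO, and with SAG *Tmsb4x* stood above *Actg1* in every mouse.

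Its relative *Tmsb10*, also a beta-thymosin gene, was at 242 ± 119 CPM with DMSO and 184 ± 24.2 CPM with SAG (SD, n = 4) and did not pass the test (log2 fold change -0.39, edgeR's quasi-likelihood test, adjusted p = 0.574). The count of *Tmsb4x* per count of *Tmsb10* was 3.74, 4.08, 4.59, and 2.93 in DMSO replicates 1 to 4. It was 12.7, 15.3, 10.7, and 12.5 in SAG replicates 1 to 4. The groups did not overlap, so the balance between these thymosins separated them.

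*Pfn1*, the gene of profilin-1, which loads monomers with ATP and delivers them to growing ends, is located on chromosome 11 from 70651850 to 70654644. The mice had 365, 409.8, 575, and 669 CPM in DMSO replicates 1 to 4 and 974, 1343, 1035, and 1132 CPM in SAG replicates 1 to 4. DMSO replicate 4 was again the highest of its group, and the groups did not overlap. The means were 505 ± 142 and 1121 ± 162 CPM (SD, n = 4 each), a log2 fold change of 1.15 (standard error 0.22). The count of *Pfn1* per count of its paralog *Pfn2* was between 27.1 and 58.7 with DMSO and between 121 and 523 with SAG. *Pfn2* itself was low, at 13.9 ± 7.40 CPM with DMSO and 5.42 ± 2.78 CPM with SAG (SD, n = 4), and did not pass the test (log2 fold change -1.36, adjusted p = 0.230 from edgeR).

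*Cfl1*, the gene of cofilin-1 on chromosome 19 from 5490455 to 5495201, had 513, 509, 574, and 646 CPM in DMSO replicates 1 to 4. In SAG replicates 1 to 4 it had 921, 1259, 798, and 1002 CPM, all above the DMSO-treated mice. Its log2 fold change of 0.83 (standard error 0.19) was close to that of *Actb*. The count of *Cfl1* per count of *Actb* was 0.106 ± 0.00902 with DMSO and 0.0970 ± 0.00895 with SAG (SD, n = 4), with overlapping groups. By contrast *Tmsb4x* and *Pfn1* were higher relative to *Actb* in every SAG-treated mouse. *Tmsb4x* was between 0.121 and 0.183 counts per count of *Actb* with DMSO and between 0.213 and 0.251 with SAG. *Pfn1* was between 0.0798 and 0.101 with DMSO and between 0.106 and 0.114 with SAG.

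All 3 leukocyte-enriched genes were higher in every SAG-treated mouse. *Gmfg*, the gene of glia maturation factor gamma on chromosome 7 from 28437447 to 28448233, had the largest fold change of the 10 genes. DMSO replicates 1 to 4 had 115, 96.3, 136, and 135 CPM, and SAG replicates 1 to 4 had 286, 449, 315, and 395 CPM. The lowest SAG-treated mouse was 2.11 times the highest DMSO-treated mouse, the widest gap among the 10 genes. The means were 120.5 ± 18.7 and 361 ± 74.5 CPM (SD, n = 4 each), a 3.00-fold difference and a log2 fold change of 1.58 (standard error 0.20).

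*Gmfb*, the broadly expressed relative on chromosome 14 from 46808149 to 46822242, showed no such separation. DMSO replicates 1 to 4 had 27.2, 32.1, 33.5, and 18.0 CPM, and SAG replicates 1 to 4 had 18.0, 30.4, 29.8, and 29.4 CPM. DMSO replicate 4 and SAG replicate 1 were the low libraries, and the groups overlapped along nearly their whole range. The log2 fold change was -0.042 (standard error 0.29) and changed sign when DMSO replicate 2, DMSO replicate 3, or SAG replicate 1 was left out. The count of *Gmfg* per count of *Gmfb* was 4.23, 3.00, 4.04, and 7.52 in DMSO replicates 1 to 4 and 15.9, 14.8, 10.6, and 13.5 in SAG replicates 1 to 4. All SAG values were above all DMSO values, with DMSO replicate 4 nearest to them.

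*Coro1a*, the gene of the leukocyte coronin on chromosome 7 from 126699773 to 126707787, was at 117, 123, 201, and 246 CPM in DMSO replicates 1 to 4. In SAG replicates 1 to 4 it was at 443, 535, 428, and 486 CPM. The groups did not overlap, and the coefficient of variation was 36.5% with DMSO and 10.2% with SAG. The log2 fold change was 1.46 (standard error 0.25), and its count relative to *Coro1b*, a broadly expressed coronin, was 6.69 ± 1.78 with DMSO and 11.1 ± 1.14 with SAG (SD, n = 4), without overlap. *Coro1b* had a log2 fold change of 0.76 (edgeR's quasi-likelihood test, adjusted p = 0.120).

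*Arpc1b*, on chromosome 5 from 145114215 to 145130705, encodes the Arp2/3 subunit that predominates in blood cells. Its level was 195, 220.4, 232, and 313 CPM in DMSO replicates 1 to 4 and 388, 482, 425, and 497 CPM in SAG replicates 1 to 4. The groups did not overlap, and the log2 fold change of 0.90 (standard error 0.19) was close to that of *Actb* and below those of *Gmfg* and *Coro1a*. The count of *Arpc1b* per count of *Arpc1a*, the other form of this subunit, was 8.34 ± 2.19 with DMSO and 17.9 ± 4.74 with SAG (SD, n = 4), without overlap. *Arpc1a* was at 32.2 ± 17.7 and 26.5 ± 7.58 CPM (SD, n = 4 each) and did not pass the test (log2 fold change -0.28, adjusted p = 0.798 from edgeR).

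In all, 8 of the 10 genes had every SAG-treated mouse above every DMSO-treated mouse, a pattern of 7.9% of the 15421 genes tested, and 0 had the reverse, a pattern of 3.84%. In the fit over all genes 7 of the 10 had an adjusted p under 0.05 and were higher, as were 2.62% of all genes tested, and 0 were lower, against 0.266%. The number was 3, 1, 1, and 7 without DMSO replicates 1 to 4 in turn, 5, 2, 3, and 1 without SAG replicates 1 to 4, and 5 with the replicate block, with DESeq2's size factors, or with plain library size. *Actb* and *Cfl1* were among those without such a p in each of these last 3 fits. It was 6 without a filter on low counts, 7 with at least 10 counts in every library, and 8 with DESeq2 or limma voom. Of all genes, 1.19%, 0.51%, 0.597%, and 6.44% were higher without DMSO replicates 1 to 4 in turn. The share was 2.21%, 0.88%, 1.43%, and 0.586% without SAG replicates 1 to 4 and 6.6% with DESeq2. The whole table held 334 higher genes with the replicate block, 348 with DESeq2's size factors, and 328 with plain library size. It held 367 without a filter, 558 with at least 10 counts in every library, and 982 with limma voom. Since the 10 genes were chosen with this contrast known, their counts carry no weight of their own. The median log2 fold change was 0.91 over the 10 genes and -0.08 over all genes tested. Together the 10 genes took between 0.838% and 1.23% of all counts with DMSO and between 1.69% and 2.08% with SAG. Without DMSO replicate 4 the log2 fold changes were between 0.56 for *Actg1* and 1.71 for *Coro1a* among the 8 genes without overlap, and that of *Tmsb4x* was 1.63.

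**Figure D2:**
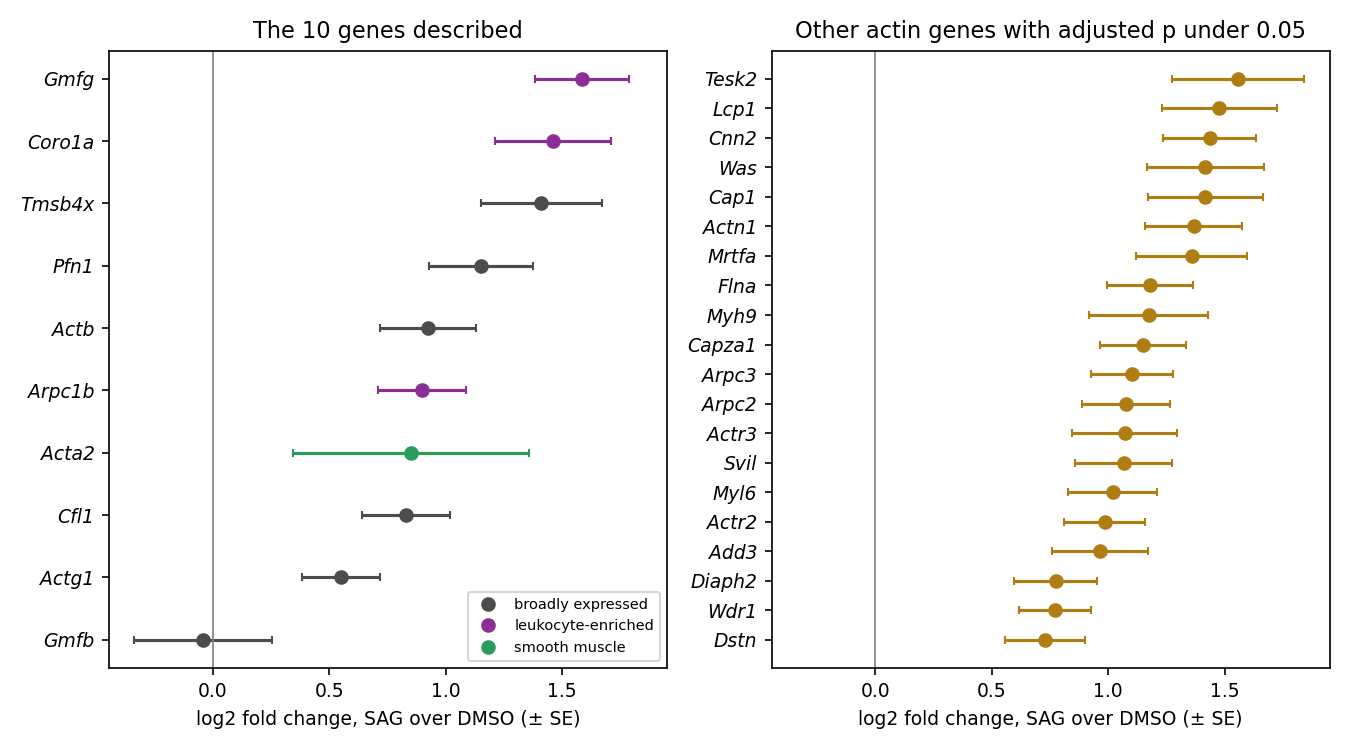
Log2 fold change of SAG over DMSO with its standard error, at left for the 10 genes and at right for the 20 other actin genes with an adjusted p under 0.05. Gmfg and Coro1a lead at left with 1.58 and 1.46, Gmfb lies near 0 at -0.042, and all 20 genes at right are above 0.

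Levels of different genes were compared per kilobase of exon. With DMSO the order was *Actb* at 2006 ± 390.4 CPM per kb, *Actg1*, *Tmsb4x*, *Pfn1* at 209.8 ± 58.9, *Cfl1* at 197 ± 22.6, *Coro1a* at 61.8 ± 22.6, *Arpc1b* at 47.0 ± 9.93, *Gmfg* at 42.8 ± 6.64, *Gmfb* at 4.04 ± 1.03, and *Acta2* at 3.69 ± 1.03 (SD, n = 4). The neighbours *Actg1* and *Tmsb4x*, *Pfn1* and *Cfl1*, *Coro1a* and *Arpc1b*, *Arpc1b* and *Gmfg*, and *Gmfb* and *Acta2* overlapped between mice. With SAG the order was *Actb* at 3804 ± 446, *Tmsb4x*, *Actg1*, *Pfn1* at 466 ± 67.2, *Cfl1* at 349.7 ± 68.5, *Coro1a* at 169.9 ± 17.3, *Gmfg* at 128 ± 26.5, *Arpc1b* at 87.6 ± 9.84, *Acta2* at 6.66 ± 3.81, and *Gmfb* at 3.93 ± 0.869 CPM per kb (SD, n = 4). Here *Pfn1* and *Cfl1*, *Coro1a* and *Gmfg*, and *Acta2* and *Gmfb* overlapped. *Gmfg* therefore overlapped *Arpc1b* with DMSO and stood above it with SAG. This depended on the length used. Per kilobase of the longest annotated transcript, *Arpc1b* stood above *Gmfg* with DMSO, at 77.4 ± 16.4 against 55.2 ± 8.58 CPM per kb, and they overlapped with SAG, at 144 ± 16.2 and 166 ± 34.2 (SD, n = 4 each). With that length *Tmsb4x* also came before *Actg1* with DMSO, the other 8 genes kept their place, and with SAG all 10 did.

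The 3 leukocyte-enriched genes were also set against *Ptprc*, the gene of the leukocyte surface protein CD45, in the same library. *Ptprc* itself was between 179 and 402 CPM with DMSO and between 520.4 and 816 CPM with SAG (log2 fold change 1.26, edgeR's quasi-likelihood test, adjusted p = 0.0255). *Gmfg* was at 0.644, 0.418, 0.494, and 0.336 counts per count of *Ptprc* in DMSO replicates 1 to 4 and at 0.5495, 0.5500, 0.546, and 0.573 in SAG replicates 1 to 4. The SAG-treated mice lay inside the range of the DMSO-treated mice, and their spread was far narrower. *Coro1a* overlapped as well, at 0.633 ± 0.0827 and 0.738 ± 0.0831 (SD, n = 4 each). *Arpc1b* was lower relative to *Ptprc* in every SAG-treated mouse, at 0.918 ± 0.138 with DMSO and 0.698 ± 0.0725 with SAG. These ratios hold for *Ptprc* only, since no other pan-leukocyte marker was used as a denominator. The other markers of that list differed from it in log2 fold change, at 0.82 for *Cd53*, 0.93 for *Spi1*, 1.04 for *Laptm5*, and 1.73 for *Cd52*.

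The broadly expressed genes were compared with *Ptprc* in the same way. *Tmsb4x* was at 3.27 ± 0.369 counts per count of *Ptprc* with DMSO and 3.63 ± 0.206 with SAG, and *Pfn1* at 1.89 ± 0.208 and 1.74 ± 0.114 (SD, n = 4 each), with overlap for both. *Actb* was at 20.7 ± 3.87 and 15.9 ± 1.41, *Cfl1* at 2.19 ± 0.521 and 1.54 ± 0.169, and *Actg1* at 7.58 ± 2.56 and 4.31 ± 0.652, again with overlap. *Gmfb* was at 0.152, 0.139, 0.122, and 0.0446 counts per count of *Ptprc* in DMSO replicates 1 to 4 and between 0.0346 and 0.0517 in the SAG libraries. DMSO replicate 4 thus lay inside the range of the SAG-treated mice for *Gmfb*, and also for *Actg1*, at 4.50 against between 3.33 and 4.69. Of the 9 genes set against *Ptprc*, *Arpc1b* was the only one without overlap between the groups, whereas by CPM 8 of the 9 had none, *Gmfb* being the exception. The overlap of 4 of these genes rested on DMSO replicate 4. Without it all SAG values lay below all DMSO values for *Actb*, *Actg1*, *Cfl1*, and *Gmfb* as well as for *Arpc1b*, and *Gmfg*, *Coro1a*, *Tmsb4x*, and *Pfn1* still overlapped. The lowest DMSO value was then 6.99 for *Actg1*, where the highest SAG value was 4.69.

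**Figure D3:**
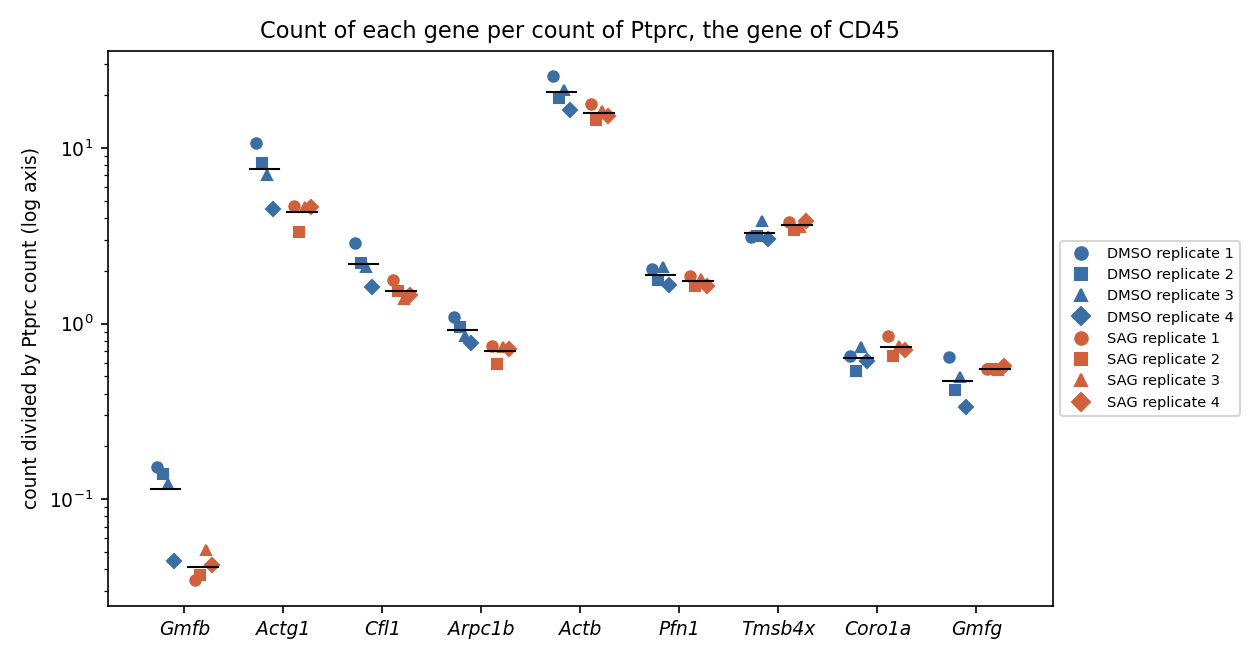
Count of each of 9 genes divided by the count of Ptprc in the same library, on a log axis, with points for single mice and lines for group means. The groups overlap for 8 genes, and for Arpc1b every SAG-treated mouse lies below every DMSO-treated mouse. For Actb, Actg1, Cfl1, and Gmfb the groups are apart without DMSO replicate 4.

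The other genes of the actin cytoskeleton were taken from a hand-written list of 114 genes in 11 groups, of which 110 were in the table and 108 were tested. This list was chosen with earlier results of these data known, so its counts are a description and carry no weight of their own. Of the 108 genes 20 were higher with SAG (18.5%, where 2.62% of all genes were) and 0 were lower, where 0.266% of all genes were (quasi-likelihood test of edgeR, threshold 0.05 on the adjusted p). With p unadjusted 47 were higher and 7 lower. In 38 of the 108 all SAG values were above all DMSO values (35.2%, against 7.9% of all genes), and in 3 below (2.78%, against 3.84% of all genes). Their median log2 fold change was 0.30, against -0.08 over all genes tested. The summed neutrophil markers given above were likewise apart between the groups, and their part in these counts was not tested. The number of higher genes changed when single mice were left out. Without DMSO replicates 1, 2, 3, and 4 in turn it was 13, 4, 4, and 38, where 1.19%, 0.51%, 0.597%, and 6.44% of all genes were higher. Without SAG replicates 1, 2, 3, and 4 it was 20, 11, 13, and 5, where 2.21%, 0.88%, 1.43%, and 0.586% of all genes were higher. DESeq2's Wald test gave 35 higher genes and 2 lower ones, against 6.6% and 3.35% of all genes it tested.

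Of the 9 other subunits of the Arp2/3 complex, 4 were higher and 0 lower (0 also with p unadjusted and by DESeq2). *Actr2* and *Actr3* encode the actin-related proteins that seed the branch, *Arpc2* encodes a subunit that holds the complex to the mother filament, and *Arpc3* encodes another of its subunits. *Actr3* was at 648 ± 171 CPM with DMSO and 1362 ± 248 CPM with SAG (SD, n = 4), a log2 fold change of 1.07 (edgeR's adjusted p = 0.0300). The log2 fold changes of *Arpc3*, *Arpc2*, and *Actr2* were 1.10, 1.08, and 0.98 (edgeR's adjusted p = 0.0112, 0.0144, and 0.0148). That of *Arpc1b* was 0.90, with a standard error of 0.19.

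Of 17 WASP and WAVE family genes and partners, *Was* was higher, the gene of the blood-cell activator of Arp2/3. It rose from 39.1 ± 11.7 to 104 ± 21.1 CPM (SD, n = 4), a log2 fold change of 1.42 (edgeR's adjusted p = 0.0144). Of 14 formins and Ena/VASP genes, *Diaph2*, a formin gene, was higher (0.78 on the log2 scale, adjusted p = 0.0410). Of 15 genes around cofilin 4 were higher. They were *Tesk2*, a cofilin kinase (1.56, adjusted p = 0.0158), *Cap1*, which recycles monomers (1.42, adjusted p = 0.0140), *Wdr1*, a cofilin cofactor (0.77, adjusted p = 0.0238), and *Dstn*, a relative of cofilin (0.73, adjusted p = 0.0452). *Cap1* reached 2622 ± 505 CPM with SAG from 982 ± 297 CPM with DMSO (SD, n = 4).

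Of 16 tested genes for capping, severing, and pointed-end proteins 3 were higher, namely *Capza1*, a subunit of capping protein (log2 fold change 1.15, edgeR's adjusted p = 0.0116), *Svil*, the gene of supervillin (1.07, adjusted p = 0.0213), and *Add3*, an adducin gene (0.97, adjusted p = 0.0302). Of these 16 genes 0 were lower by edgeR's adjusted p or by DESeq2, and 1 was with p unadjusted. Of 14 tested genes for crosslinking and bundling proteins 4 were higher. They were *Lcp1*, the gene of the leukocyte bundler L-plastin (1.48, adjusted p = 0.0130), *Cnn2*, a calponin gene (1.44, adjusted p = 0.0102), *Actn1*, an alpha-actinin gene (1.37, adjusted p = 0.0102), and *Flna*, a filamin gene (1.18, adjusted p = 0.0108). The median of this group was below 0, at -0.21. Among its 14 tested genes 0 were lower by edgeR's adjusted p or by DESeq2, and 1 was with p unadjusted. Of 11 tropomyosin and nonmuscle myosin II genes *Myh9* and *Myl6*, a heavy and a light chain of nonmuscle myosin, were higher (1.17 and 1.02, adjusted p = 0.0323 and 0.0174). In this group 0 genes were lower by edgeR's adjusted p, 2 were with p unadjusted, and 1 was by DESeq2. *Myh10*, another nonmuscle myosin heavy chain, named after its values were seen, was at 175 ± 7.09 CPM with DMSO and 95.0 ± 29.7 CPM with SAG (SD, n = 4), below in every SAG-treated mouse (log2 fold change -0.88, edgeR's adjusted p = 0.0625). *Myh9* was the most abundant of the 20, at 2550.4 ± 759 CPM with DMSO and 5752 ± 1332 CPM with SAG (SD, n = 4).

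Of 3 genes for serum response factor and its cofactors *Mrtfa* was higher, the gene of a cofactor that senses free actin monomers (log2 fold change 1.36, edgeR's adjusted p = 0.0143). Among these 3 genes 0 were lower by edgeR's adjusted p or by DESeq2, and 1 was with p unadjusted. *Mrtfb*, named after its values were seen, had a log2 fold change of -0.74 (edgeR's adjusted p = 0.247). No gene passed edgeR's test among the 6 other coronins, of which 3 were higher at an unadjusted p under 0.05 and 1 was called by DESeq2. The most abundant was *Coro1c*, at 68.5 ± 4.77 and 98.5 ± 14.5 CPM (SD, n = 4 each), which had a log2 fold change of 0.52 (edgeR's adjusted p = 0.159). No gene passed it either among the other profilin and thymosin, given above, of which 1 was lower with p unadjusted and 0 by DESeq2, or among the other actin isoforms, where both counts were 0. Of the isoforms, *Acta1*, the skeletal muscle actin, was tested, at 2.31 ± 1.88 and 1.12 ± 1.05 CPM (log2 fold change -1.04, edgeR's adjusted p = 0.803), and *Actc1* and *Actg2* were below the filter.

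The contrast between leukocyte-enriched and broad paralogs was extended to 12 further hand-written pairs that hold none of the 10 genes. These pairs too were chosen with earlier results of these data known. They were not separate from the list of other actin genes above. That list also held *Was* and *Wasl*, *Nckap1l* and *Nckap1*, *Hcls1* and *Cttn*, *Fmnl1* and *Fmnl2*, and *Lcp1* and *Pls3*. *Was* and *Lcp1* were thus already counted there as higher. Of the 12 leukocyte-enriched genes 4 were higher, *Was*, *Lcp1*, *Myo1f*, and *Arhgdib*, and 0 were lower (0 also with p unadjusted and by DESeq2), whereas 0 of the 12 broad paralogs passed the test in either direction (quasi-likelihood test of edgeR, threshold 0.05 on the adjusted p, against 2.62% of all genes higher and 0.266% lower). Of the broad paralogs 1 was higher and 1 lower when p was left unadjusted, as with DESeq2. Without DMSO replicate 4 the number was 11 of the leukocyte-enriched genes, and without DMSO replicate 2 or SAG replicate 4 it was 0. It was 1 without DMSO replicate 3 or SAG replicate 2 and 2 without DMSO replicate 1 or SAG replicate 3. The share of all genes that was higher moved too, at 6.44% without DMSO replicate 4. It was 0.51% without DMSO replicate 2, 0.586% without SAG replicate 4, 0.597% without DMSO replicate 3, and 0.88% without SAG replicate 2. Without DMSO replicate 1 the share was 1.19%, and without SAG replicate 3 it was 1.43%. The median log2 fold change was 1.15 over the leukocyte-enriched genes and -0.41 over the broad ones.

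The log2 ratio of counts within each library was higher with SAG in the mean of all 12 pairs, and in 5 of them all SAG values were above all DMSO values. The differences were largest for *Myo1f* over *Myo1e*, which encode class I myosins, at 2.26, for *Parvg* over *Parva*, parvins of integrin contacts, at 2.17, and for *Lcp1* over *Pls3*, plastins, at 2.15. They were smallest for the formins *Fmnl1* over *Fmnl2*, at 0.074, and for the myosins *Myo1g* over *Myo1d*, at 0.76. Among the pairs that hold one of the 10 genes, the difference was 1.61 for *Gmfg* over *Gmfb*, 1.10 for *Arpc1b* over *Arpc1a*, and 0.77 for *Coro1a* over *Coro1b*, and all 3 pairs were without overlap. How often the ratio of other pairs of genes was apart between the groups was not counted, so these numbers have no background share.

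The mean log2 ratio over the 12 pairs was 0.160, 0.746, 1.10, and 2.28 in DMSO replicates 1 to 4 and 2.17, 3.54, 2.35, and 2.33 in SAG replicates 1 to 4. DMSO replicate 4 lay above SAG replicate 1 and close to SAG replicates 3 and 4, and the DMSO-treated mice spanned a wider range than the SAG-treated mice. The difference of the means was 1.52, and it was 1.93 without DMSO replicate 4.

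**Figure D4:**
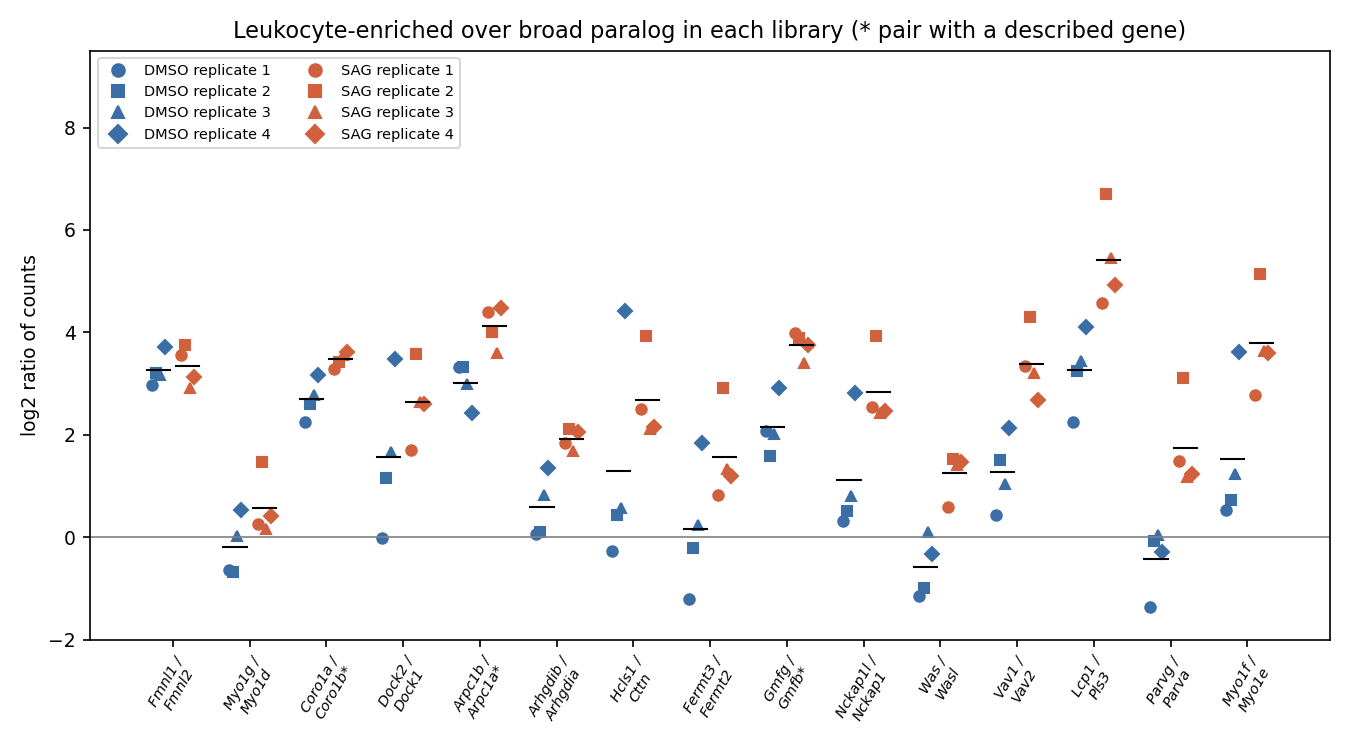
Log2 ratio of the count of a leukocyte-enriched gene to that of its broad paralog in each library, for 15 pairs sorted by the difference between the groups, with points for single mice and lines for group means. The mean is higher with SAG in all pairs, and DMSO replicate 4 lies among the SAG-treated mice in several of them.

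*Actb* was set beside 12 other genes that are often used as a PCR reference, by the SD of log2 CPM over the 8 libraries. It ranked 12 of 13 from the steadiest, with an SD of 0.544. This SD holds the difference between the groups, with which *Actb* was chosen. Within the groups, an alternative added after the data were seen, the SD of *Actb* was 0.230 and it ranked 6 of 13. *Ppia*, the gene of cyclophilin A, was the steadiest at 0.172, followed by *Gusb* at 0.189 and *Rplp0* at 0.214. *Gapdh* ranked 9 with 0.428, and *Pgk1* alone varied more than *Actb*, at 0.624. Of the 12 other genes *Gapdh* alone had an adjusted p under 0.05 between the groups (log2 fold change 0.74, edgeR's adjusted p = 0.0403). The count of *Actb* per count of *Gapdh* was 20.5 ± 1.96 with DMSO and 23.3 ± 0.441 with SAG (SD, n = 4), with overlap because DMSO replicate 4 was at 23.3 and SAG replicate 4 at 22.7. Without DMSO replicate 4 all SAG values were above all DMSO values.

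**Figure D5:**
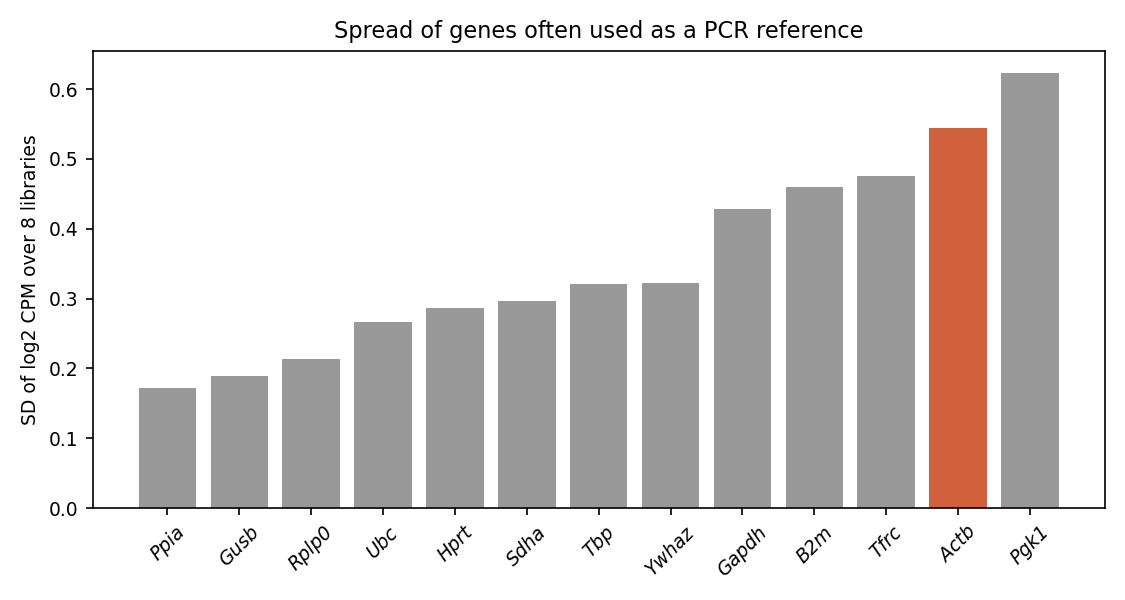
SD of log2 CPM over the 8 libraries for 13 genes often used as a PCR reference, as bars from 0, with Actb marked. Actb has the second highest SD, 0.544, and Ppia the lowest, 0.172, where the SD includes the difference between the groups.

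The genes whose pattern over the 8 libraries was most like that of *Actb* were sought among 9312 genes with a mean of at least 10 CPM, by the root-mean-square distance of centred log2 CPM. Among the 5 nearest were *Ptbp3*, *Tln1*, *Cdc42*, and *Fam49b*, at distances between 0.088 and 0.10. For *Gmfg* they were *Hlx*, *Fgr*, *Plxnc1*, *S100a11*, and *Pirb*, at distances between 0.12 and 0.15. For *Acta2* they were *Oasl2*, *Glipr1*, *Slfn8*, *Cwc25*, and *Tfip11*, at distances between 0.25 and 0.34, so no gene followed *Acta2* as closely as others followed *Actb* and *Gmfg*. The points share libraries and depth, and the likeness is a description.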

How the data were processed

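The deposited values are raw counts of reads on genes, made by the authors and not normalized, for RNA of sorted mCherry+CD73+ cells from 4 DMSO-treated and 4 SAG-treated mice. RNA was extracted with a micro-scale kit, and libraries were made with a stranded total RNA kit meant for very low inputs. The submitters' processing notes name kallisto, DESeq2, and GRCm38 without their roles or versions. Filters, strand setting, and annotation are not given in the sources used here, nor is the test for differential expression. Libraries were matched to treatment by their labels, and 0 were left unmatched. Of the 16536 gene symbols 16524 matched GENCODE release M21, the source of coordinates and lengths.

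The analysis used R 4.3.3 and edgeR 4.0.16. filterByExpr kept 15421 genes, TMM scaled the libraries, and the groups were compared by robust quasi-likelihood tests, adjusted over all genes after Benjamini and Hochberg, with a threshold of 0.05. Log2 CPM used a prior count of 2, and ratios of paralogs a pseudocount of 0.5. Depth was between 24971992 and 46593090 counts. Biopython 1.88 aligned coding sequences. The 10 genes, the lists of other actin genes, paralog pairs, reference genes, and markers were chosen with earlier results of these data known. Named were the 10 genes, the other actin genes with an adjusted p under 0.05 (in groups without one, the most abundant), the 3 most and 2 least different pairs, the 5 genes of likest pattern, the reference genes by rank, and paralogs that serve as denominators. *Myh10*, *Enah*, *Mrtfb*, and the single smooth muscle and pericyte markers were named after their values were seen. Alternatives were DESeq2 1.42.0, limma 3.58.1 with voom, other size factors or filters, a replicate block, each mouse left out in turn, a pseudocount of 5, and transcript lengths. No protein sequence was used here. A reference gene and a gene of likest pattern are not reported here.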

Additional observations from a re-analysis of the deposited data

Results flagged for a closer look

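Among 66 groups of 4 libraries examined with Dixon's test (the gap of the highest or lowest library to its nearest neighbour over the range of the group), 5 held a library far from the others, where chance gives 3.3. The count of *Cfl1* per count of its muscle-type paralog *Cfl2* was 122 in DMSO replicate 4, with the next DMSO-treated mouse at 52.8. *Gmfb* was at 18.0 CPM in SAG replicate 1, with the next SAG-treated mouse at 29.4 CPM. The count of *Gmfg* per count of *Ptprc* was 0.573 in SAG replicate 4, with the next at 0.550, a small gap in a very narrow group. The count of *Actg1* per count of *Ptprc* was 3.33 in SAG replicate 2, with the next at 4.58. The mean log2 ratio over the 12 paralog pairs was 3.54 in SAG replicate 2, with the next at 2.35. In SAG replicate 2 the summed chondrocyte markers were also the lowest of all libraries, at 19018 CPM, and the neutrophil markers the highest, at 47527 CPM. Their part in these values was not tested.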

How the results depend on the processing

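The log2 fold changes of 9 of the 10 genes kept their sign in all 15 alternatives and moved by less than the spread between replicates. That of *Gmfb* changed sign to 0.038 without DMSO replicate 2, 0.045 without DMSO replicate 3, and 0.11 without SAG replicate 1, and lay between -0.17 and 0.11 with each mouse left out in turn. Counts of called genes depended on the tool. With DESeq2, 812 genes of the whole table were higher and 413 lower, 35 other actin genes higher and 2 lower, 10 leukocyte-enriched paralogs higher, and 1 broad paralog higher and 1 lower. With limma voom the counts were 982 and 388, 38 and 4, 11, and 1 and 1. With at least 10 counts in every library, 87 genes were lower, 1 other actin gene was lower, 10 leukocyte-enriched paralogs were higher, and 1 broad paralog was higher and 1 lower. With plain library size 1 broad paralog was lower. Each mouse left out in turn gave between 80 and 1017 higher and between 4 and 343 lower genes, between 4 and 38 higher and between 0 and 5 lower other actin genes, between 0 and 11 higher leukocyte-enriched paralogs, and between 0 and 1 higher and between 0 and 2 lower broad paralogs. Most calls came without DMSO replicate 4. The difference of the mean log2 ratio over the 12 pairs was between 1.21 and 1.93, and 1.52 with a pseudocount of 5. The cause of these changes was not tested.

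The replicate numbers were not treated as pairs in the main fit. Deviations of same-numbered mice correlated at between 0.010 and 0.12. The SAG-treated mouse most like DMSO replicates 1 and 3 bore the same number, and that of DMSO replicates 2 and 4 did not. With so few mice these correlations cannot decide whether the mice were paired. With the replicate block 334 genes were higher and 18 lower, 16 other actin genes were higher, and 5 leukocyte-enriched paralogs were higher. For 21 ratios of counts within a library, leaving out DMSO replicate 4, an alternative chosen after seeing the data, turned no direction.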
